A study of Mus musculus with 8 samples.

Results

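The markers described here are 40 genes that identify cell types other than muscle, used to ask how pure cultures of primary myoblasts were: 16 fibroblast and fibro-adipogenic progenitor markers, 10 leukocyte markers, 10 endothelial markers and 4 Schwann cell markers. They were listed by name, with earlier results of these data known. A member was measured where a probe set carried its symbol as the only gene symbol, which held for 39 of the 40 among 19938 genes measured, each with 1 probe set; Ly6a is not analysed here. RNA of the cultures was hybridized to Affymetrix MoGene 1.0 ST arrays, which read whole transcripts in a single colour. There were 4 arrays labelled Runx1f/f and 4 labelled WT, numbered 1 to 4 in each as biological replicates, all of C57bl/6 background. The cells were satellite cells isolated from gastrocnemius muscle at an age of 2 to 3 weeks and grown on Matrigel in proliferation medium. The series calls the comparison knockout against WT, and a floxed Runx1 allele is deleted by Cre recombinase; the labels name no Cre for these cells. Nor do they name the animals behind each culture, so p-values measure the spread between these arrays.

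Skeletal muscle holds several cell types beside its fibres and satellite cells. Fibro-adipogenic progenitors are interstitial mesenchymal cells that carry Pdgfra and lay down matrix, macrophages and other leukocytes enter after injury, endothelial cells line the dense capillary bed, and Schwann cells ensheath the motor axons. Cells of each kind can be carried into a satellite cell preparation when muscle is dissociated, and fibroblasts in particular can overgrow a myoblast culture. Transcripts that define these cells are therefore read as a gauge of what else a culture contains. In bulk RNA, fewer cells of a type and less RNA per cell cannot be told apart.

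Values are log2 intensities after robust multi-array averaging (RMA), and a level is the value minus the median over all genes on the same array. Probe sets differ in how strongly they respond, so a level is a position on the array and not an amount of transcript. Array medians ran from 4.40 to 4.44. Since no detection values were used here, 1194 olfactory and vomeronasal receptor genes, which belong to sensory neurons, served as a reference for genes not expected in muscle: their median was 3.64 to 3.69 and their 95th percentile 4.26 to 4.33 over the 8 arrays. The labelled cell type was checked against muscle genes. Of 27 measured myogenic genes, 25 were above the array median on all 8 arrays, and Pax3 and Msc were below it on all 8. The regulators Myod1 and Myog averaged 11.35 and 11.34 under both labels. The sarcomeric actin genes Actc1 and Acta1 had the highest mean levels of these genes, 8.58 and 8.18. Mef2c had the widest range, 2.20. Desmin (Des) averaged 11.31 ± 0.11 in Runx1f/f and 11.31 ± 0.14 in WT arrays, and the satellite cell factor Pax7 averaged 7.07 ± 0.09 in Runx1f/f and 7.07 ± 0.16 in WT arrays (SD, n = 4 each).

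The labels cannot be compared through the deposited values. In all 35399 rows, the means of Runx1f/f 1 and 2, of Runx1f/f 3 and 4, and of the 4 WT columns were equal within 7.5e-05, so the genotype difference of every gene is rounding. The Runx1f/f columns thus form 2 pairs, each mirrored around the same mean. Their SDs, given with n = 4, do not rest on 4 independent values and cannot be set against the WT SDs. Runx1, the targeted gene, read 9.35, 9.98, 9.89 and 9.44 in Runx1f/f 1 to 4, against 9.15, 9.99, 10.27 and 9.25 in WT 1 to 4. Its Runx1f/f values lay inside the WT range, and replicates 2 and 3 were higher than 1 and 4 under both labels without overlap. Since the label means are equal in every row, a permutation test of their difference returns a p of 1 whatever the gene and says nothing of Runx1. The labels do not say which part of the gene was deleted, so a probe set outside it would check nothing. The arrays are therefore named by their labels throughout, and the spread between arrays is what the values describe.

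Most of the markers lay at the level of genes not expected in muscle. Of the 39 measured, 34 (87.2%) were below the array median on all 8 arrays, where 47.5% of all genes were, and the same number, 34, never exceeded the 95th percentile of the receptor genes, where 45.8% of all genes never did. Of the 39, 17 were below the median receptor gene on every array. The markers above the array median on all 8 arrays numbered 3 (7.69%, against 47.7% of all genes): Gsn, Dpep1 and Islr, all from the fibroblast list. With the receptor genes as the limit, 4 were above it on all 8 arrays (10.3%, against 48.9% of all genes), the same 3 and the leukocyte marker Cd68. Thy1 was above that limit on 4 of 8 arrays. The median level of the 39 was -0.82, against -0.76 for the receptor genes, 5.85 for the myogenic genes and 7.62 for 7 housekeeping genes.

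**Figure D1:**
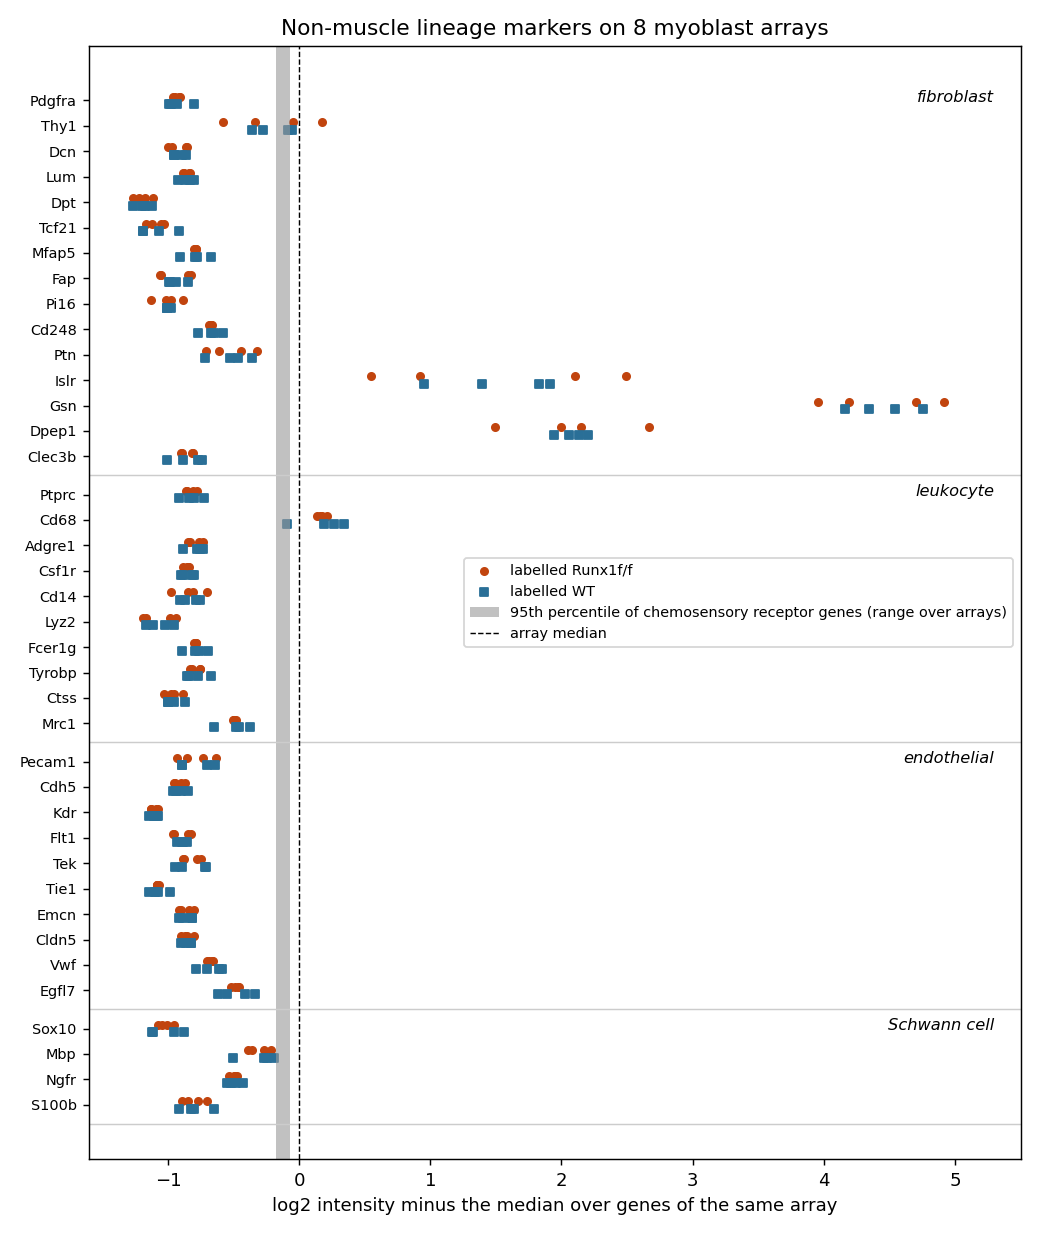
Log2 intensity minus the array median for each of the 39 measured markers (rows, by lineage), with 1 point per array: circles are the 4 arrays labelled Runx1f/f and squares the 4 labelled WT. The grey band is the range over arrays of the 95th percentile of the receptor genes and the dashed line the array median. Points of 34 markers lie left of the dashed line on every array, and those of Gsn, Dpep1 and Islr lie right of it on every array.

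Regulatory sequence of the 4 markers above the receptor limit on all arrays is shown because no other marker exceeded it throughout; the 4 were chosen after their values were seen. The windows run from 250 bases before to 50 bases after an annotated start (RefSeq, GRCm38.p6), 5′ to 3′ on the strand of the gene. Capitals mark letters that match the RUNX motif TGTGGT, the E-box CAGCTG bound by MyoD or the AP-1 motif TGANTCA on either strand, the factors named in the title of the series. Gelsolin has 3 annotated starts, with windows chr2:35256109-35256408, plus strand, chr2:35266494-35266793, plus strand, and chr2:35282130-35282429, plus strand. The window of Islr is chr9:58158505-58158804, minus strand, that of Dpep1 chr8:123185985-123186284, plus strand, and that of Cd68 chr11:69666121-69666420, minus strand, where the E-box and an AP-1 match overlap.
Gsn, start with the lowest coordinate: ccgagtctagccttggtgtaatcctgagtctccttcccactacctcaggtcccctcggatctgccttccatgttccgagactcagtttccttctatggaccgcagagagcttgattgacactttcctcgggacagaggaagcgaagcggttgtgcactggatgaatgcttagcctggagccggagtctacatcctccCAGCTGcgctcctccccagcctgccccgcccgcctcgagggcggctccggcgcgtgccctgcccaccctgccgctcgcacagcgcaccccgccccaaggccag
Gsn, middle start: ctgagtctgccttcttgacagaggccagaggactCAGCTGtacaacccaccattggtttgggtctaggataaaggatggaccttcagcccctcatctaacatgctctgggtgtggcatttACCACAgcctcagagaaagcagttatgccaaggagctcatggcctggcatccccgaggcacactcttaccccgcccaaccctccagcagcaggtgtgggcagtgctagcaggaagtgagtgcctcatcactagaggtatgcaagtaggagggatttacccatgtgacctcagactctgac
Gsn, start with the highest coordinate: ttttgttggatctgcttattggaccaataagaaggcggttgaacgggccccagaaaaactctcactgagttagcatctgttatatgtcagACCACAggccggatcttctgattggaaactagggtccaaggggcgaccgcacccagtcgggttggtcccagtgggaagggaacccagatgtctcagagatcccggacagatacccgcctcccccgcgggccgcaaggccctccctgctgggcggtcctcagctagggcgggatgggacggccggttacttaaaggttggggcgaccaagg
Islr: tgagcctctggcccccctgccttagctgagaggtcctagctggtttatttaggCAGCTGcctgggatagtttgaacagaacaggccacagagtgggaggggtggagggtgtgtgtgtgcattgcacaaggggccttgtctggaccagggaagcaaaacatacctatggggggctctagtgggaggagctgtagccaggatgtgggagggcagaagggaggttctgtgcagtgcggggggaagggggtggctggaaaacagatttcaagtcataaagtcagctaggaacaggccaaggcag
Dpep1: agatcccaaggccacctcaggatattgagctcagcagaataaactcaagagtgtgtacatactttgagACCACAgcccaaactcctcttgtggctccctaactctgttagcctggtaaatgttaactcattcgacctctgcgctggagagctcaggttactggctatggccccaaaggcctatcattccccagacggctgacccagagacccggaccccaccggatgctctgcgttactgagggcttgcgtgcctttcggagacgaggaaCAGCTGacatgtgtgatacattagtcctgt
Cd68: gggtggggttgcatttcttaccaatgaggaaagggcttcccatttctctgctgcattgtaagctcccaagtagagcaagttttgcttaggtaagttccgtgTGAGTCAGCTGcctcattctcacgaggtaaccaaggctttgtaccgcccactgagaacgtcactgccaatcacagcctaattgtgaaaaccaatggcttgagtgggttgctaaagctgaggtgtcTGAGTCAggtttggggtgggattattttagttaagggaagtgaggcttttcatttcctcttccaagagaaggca

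Windows were at hand for 23 markers. Counted per gene, the E-box CAGCTG was in at least 1 window of 12 of these 23 markers (52.2%) and of 18.3% of all 27025 genes with a window. Counted per window, it was in 13 of the markers' 28 windows (46.4%) and in 16.3% of all 32851 windows. All 4 markers shown above have it, as do 8 of the 19 markers with a window that never exceeded the receptor limit, among them Ptprc, Lyz2 and Pi16. The RUNX motif was in at least 1 window of 5 of the 23 (21.7%, against 18.9% of all genes), with Gsn and Dpep1 among the 4 shown, and in 6 of the 28 windows (21.4%, against 16.8% of all windows). The AP-1 motif was in the window of Cd68 alone among the 23 (4.35%, against 8.97% of all genes), which is 3.57% of the markers' windows, against 7.81% of all windows. A match is a run of letters and not a measured site, and the windows of 1 gene are not independent.

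Among the fibroblast markers, 11 of 15 measured were below the array median on all 8 arrays. Pdgfra, the receptor that defines fibro-adipogenic progenitors, read 3.51, 3.47, 3.53 and 3.45 in Runx1f/f 1 to 4, against 3.48, 3.46, 3.63 and 3.40 in WT 1 to 4. Dcn, which encodes the matrix proteoglycan decorin, read 3.58, 3.43, 3.47 and 3.54 in Runx1f/f 1 to 4, against 3.55, 3.54, 3.47 and 3.45 in WT 1 to 4. Both stayed below the receptor limit on every array, and the labels overlapped. The other 9 low members were the proteoglycan gene Lum, the matrix genes Dpt and Mfap5, the mesenchymal transcription factor Tcf21, the surface protease Fap, Pi16 and Cd248 of adventitial and stromal cells, the growth factor gene Ptn and Clec3b, which encodes tetranectin. Their levels averaged from -1.19 in Dpt to -0.52 in Ptn.

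Gsn encodes gelsolin, an actin-severing protein that is also made outside fibroblasts. It read 8.39, 9.35, 9.15 and 8.59 in Runx1f/f 1 to 4, against 8.75, 8.98, 9.18 and 8.56 in WT 1 to 4. Its mean was 8.87 ± 0.45 in Runx1f/f and 8.87 ± 0.27 in WT arrays (SD, n = 4 each), with a level of 3.96 to 4.92. Replicates 2 and 3 were higher than replicates 1 and 4 under both labels, with no overlap.

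Dpep1 encodes a membrane dipeptidase. Its values were 6.43, 6.58, 5.94 and 7.07 in Runx1f/f 1 to 4, against 6.54, 6.50, 6.37 and 6.60 in WT 1 to 4. It averaged 6.50 ± 0.47 in Runx1f/f and 6.50 ± 0.10 in WT arrays (SD, n = 4 each). Runx1f/f 3 was lowest and Runx1f/f 4 highest, and the WT arrays lay between them. These Runx1f/f columns mirror each other around the mean, so this is no contrast between labels.

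Islr encodes an immunoglobulin-domain and leucine-rich repeat protein of mesenchymal stromal cells, also called Meflin. It read 5.35, 6.54, 6.93 and 4.95 in Runx1f/f 1 to 4, against 6.32, 5.39, 6.26 and 5.80 in WT 1 to 4. With a range of 1.98 over the 8 arrays it varied more than any other of the 39, and its mean was 5.94 ± 0.94 in Runx1f/f and 5.94 ± 0.43 in WT arrays (SD, n = 4 each). Runx1f/f 2 and 3 were high and Runx1f/f 1 and 4 low, whereas in WT number 1 was highest and number 2 lowest. Islr was the member just inside the array-median limit, with a lowest level of 0.55. Cd68 was just outside it, with a lowest level of -0.09.

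Thy1, a surface glycoprotein of fibroblasts, neurons and lymphocytes, is described because it straddled the limits, and was chosen after its values were seen. It read 4.60, 3.85, 4.10 and 4.35 in Runx1f/f 1 to 4, against 4.05, 4.36, 4.16 and 4.35 in WT 1 to 4. Only Runx1f/f 1 was above the array median, and Runx1f/f 2, its mirrored column, was lowest.

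**Figure D2:**
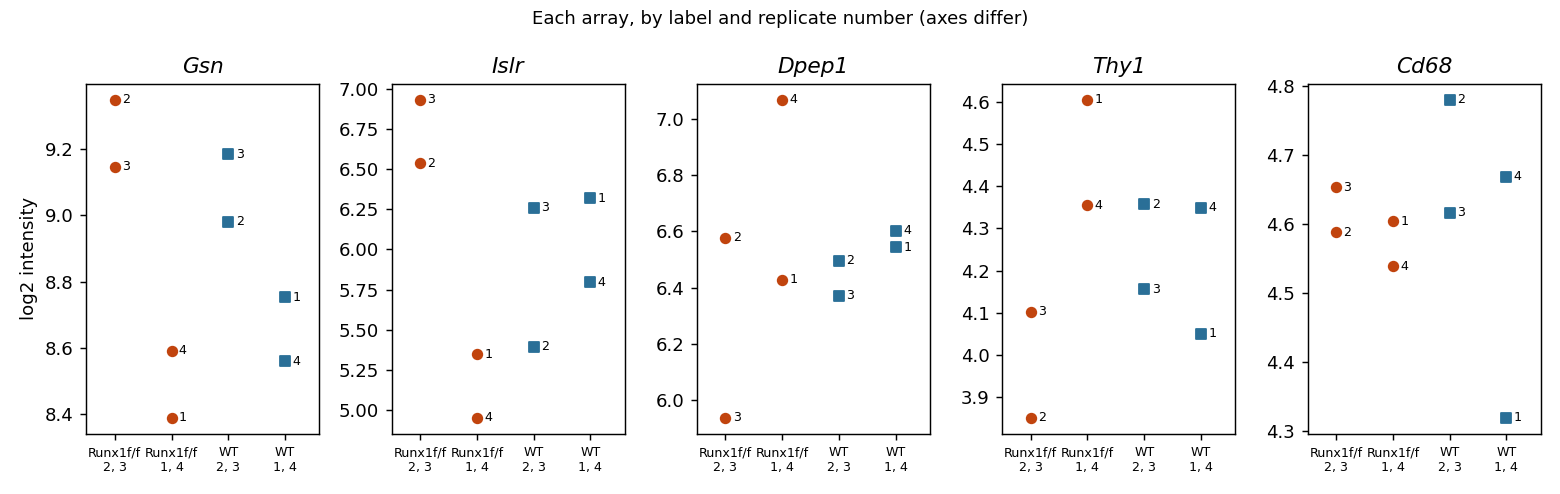
Log2 intensity of Gsn, Islr, Dpep1, Thy1 and Cd68 on each array, split by label and replicate numbers, with the number beside each point and a separate vertical axis per gene. Gsn is higher in replicates 2 and 3 under both labels (8.98 to 9.35, against 8.39 to 8.75 in replicates 1 and 4), whereas the other 4 overlap between these sets.

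Leukocyte markers were low apart from Cd68. Of 10, 9 were below the array median and never above the receptor limit on any array. Ptprc, the CD45 phosphatase found on nearly all leukocytes, read 3.62, 3.58, 3.57 and 3.62 in Runx1f/f 1 to 4, against 3.68, 3.60, 3.52 and 3.60 in WT 1 to 4. Adgre1, the macrophage antigen F4/80, read 3.67, 3.59, 3.60 and 3.66 in Runx1f/f 1 to 4, against 3.67, 3.66, 3.54 and 3.64 in WT 1 to 4. Neither exceeded the receptor limit on any array. Cd68, a lysosomal glycoprotein abundant in macrophages, read 4.60, 4.59, 4.65 and 4.54 in Runx1f/f 1 to 4, against 4.32, 4.78, 4.62 and 4.67 in WT 1 to 4. It was above the array median on 7 of 8 arrays, WT 1 being the exception, and averaged 4.60 ± 0.05 in Runx1f/f and 4.60 ± 0.20 in WT arrays (SD, n = 4 each).

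Cd14, the co-receptor for bacterial lipopolysaccharide, read 3.72, 3.46, 3.59 and 3.59 in Runx1f/f 1 to 4, against 3.63, 3.57, 3.52 and 3.64 in WT 1 to 4. The mannose receptor gene Mrc1 read 3.93, 3.93, 3.94 and 3.92 in Runx1f/f 1 to 4, against 3.95, 3.96, 3.78 and 4.03 in WT 1 to 4. In Cd14 the widest gap lay within Runx1f/f, between 1 and 2, and in Mrc1 within WT, between 3 and 4. Runx1f/f 1 and 2 mirror each other around their mean, so the gap in Cd14 is no contrast between labels. The remaining members were the colony-stimulating factor receptor Csf1r, lysozyme (Lyz2), the adaptors Fcer1g and Tyrobp, and the protease Ctss, with mean levels from -1.07 in Lyz2 to -0.78 in Tyrobp. The mean level of Mrc1 was -0.49 and that of Cd68 0.18.

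All 10 endothelial markers were below the array median on all 8 arrays, and none exceeded the receptor limit on any. Pecam1, the adhesion molecule CD31, read 3.70, 3.58, 3.51 and 3.76 in Runx1f/f 1 to 4, against 3.71, 3.55, 3.54 and 3.76 in WT 1 to 4. Cdh5, the cadherin of endothelial junctions, read 3.48, 3.53, 3.49 and 3.53 in Runx1f/f 1 to 4, against 3.57, 3.48, 3.53 and 3.46 in WT 1 to 4. The 8 values of Cdh5 spanned 0.11 and those of Pecam1 0.25, with replicates 2 and 3 below 1 and 4 in Pecam1 under both labels.

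Egfl7, a secreted endothelial factor, read 3.91, 3.97, 3.95 and 3.93 in Runx1f/f 1 to 4, against 4.07, 4.03, 3.81 and 3.85 in WT 1 to 4. The von Willebrand factor gene Vwf read 3.73, 3.77, 3.78 and 3.71 in Runx1f/f 1 to 4, against 3.71, 3.83, 3.84 and 3.61 in WT 1 to 4. These and Pecam1 had the widest ranges among the endothelial markers. The vascular endothelial growth factor receptors Kdr and Flt1, the angiopoietin receptor Tek, its relative Tie1, the sialomucin Emcn and the tight junction gene Cldn5 had mean levels between -1.10 in Kdr and -0.82 in Tek.

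The 4 Schwann cell markers were all below the array median on all 8 arrays. Sox10, the transcription factor of the neural crest and glia, read 3.38, 3.42, 3.36 and 3.44 in Runx1f/f 1 to 4, against 3.45, 3.56, 3.31 and 3.29 in WT 1 to 4. Mbp, which encodes myelin basic protein, read 4.07, 4.17, 4.05 and 4.19 in Runx1f/f 1 to 4, against 3.90, 4.17, 4.19 and 4.21 in WT 1 to 4. Mbp had the highest mean level of the 34 low markers, at -0.30, and still stayed under the receptor limit. The neurotrophin receptor gene Ngfr averaged 3.92 ± 0.03 in Runx1f/f and 3.92 ± 0.06 in WT arrays, and S100b, a calcium-binding protein of glia, 3.62 ± 0.07 in Runx1f/f and 3.62 ± 0.12 in WT arrays (SD, n = 4 each).

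The design compares Runx1f/f with WT, and for the markers this comparison carries no information. Of 39 markers, 0 were called (limma, adjusted p under 0.05 over all genes), with 0 at an unadjusted p under 0.05, and 0 of 19938 genes (0%) were called. The largest difference of a marker between the labelled genotypes was 2.5e-06, and Gsn, Islr, Dpep1 and Cd68 each had an adjusted p of 1 in limma. These results follow from the equal column means and do not show that the cultures of both labels held the same mix of cells.

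Source numbers attached to the samples fall in 3 runs: 139 to 142 with 2 arrays per label, and 160 to 161 and 181 and 189 with 1 array per label each. Runx1f/f minus WT within these runs must cancel when weighted by arrays. For Islr the difference was 0.09 in the run 139 to 142, 0.67 in the run 160 to 161 and -0.85 in the run 181 and 189. For Dpep1 it was -0.02, -0.44 and 0.47 in the same order. For Gsn it was 0.00, -0.04 and 0.03. With the first run near 0, the opposite signs of Islr and Dpep1 in the later runs follow from the equal means. The later runs hold 1 array per label each, and no test was made.

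Arrays numbered 2 and 3 stand apart from those numbered 1 and 4 under both labels along the leading component of all genes. That split was found in the values and is named by no label, so the markers' differences across it are described without a test. It also crosses the columns that are tied to each other: Runx1f/f 1 and 2, and likewise 3 and 4, are mirror images around their mean. Runx1f/f 2 and 3 are therefore separated from Runx1f/f 1 and 4 whenever they lie on the same side of that mean. Replicates 2 and 3 lay all above replicates 1 and 4 in 7 of 39 markers (17.9%, against 9.87% of all genes) and all below them in 4 (10.3%, against 10.5% of all genes). Either way this makes 11 (28.2%, against 20.4% of all genes). With a difference of at least 1.5-fold as well, 1 marker, Gsn, was above (2.16% of all genes were) and 0 below (0.727% of all genes were), so that 2.56% of the markers and 2.88% of all genes met both criteria.

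Gsn averaged 0.59 higher on the log2 scale in replicates 2 and 3 than in 1 and 4, which is 1.51-fold and just inside the limit. Within the run 139 to 142, which holds numbers 1 and 2 of both labels, number 2 was above number 1 by 0.96 in Runx1f/f and by 0.23 in WT. Islr averaged 0.68 higher in replicates 2 and 3, but the sets overlapped, with 5.39 to 6.93 in replicates 2 and 3 and 4.95 to 6.32 in replicates 1 and 4. The mean differences of the labels had opposite signs: replicates 2 and 3 differed from 1 and 4 by 1.59 in Runx1f/f and by -0.23 in WT. The sets overlapped in WT. That they did not in Runx1f/f follows from the mirrored columns once 2 and 3 lie on the same side of the mean, so it is no contrast between labels. Within the run 139 to 142, number 2 differed from number 1 by 1.19 in Runx1f/f and by -0.93 in WT. Dpep1 averaged -0.32 across the split, again with overlapping sets.

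The other 10 separated markers were below the array median on all 8 arrays. The 6 higher in replicates 2 and 3 were Ptn, Pi16, Csf1r, Kdr, Tie1 and Vwf, and the 4 lower were Cd14, Pecam1, Tek and Emcn. Their differences were 0.06 to 0.27 in size, the widest in Ptn, which read 3.97 to 4.12 in replicates 2 and 3 and 3.69 to 3.87 in replicates 1 and 4. In Pi16, Kdr, Tie1 and Cd14 the nearest arrays of the 2 sets were equal to 2 decimals. Pecam1 read 3.51 to 3.58 in replicates 2 and 3, against 3.70 to 3.76 in replicates 1 and 4. By lineage and with Gsn included, 3 of 15 fibroblast markers were higher and 0 lower, and 1 of 10 leukocyte markers was higher and 1 lower. Of 10 endothelial markers, 3 were higher and 3 lower, and all 4 Schwann cell markers overlapped. Over all genes, 9.87% were all above and 10.5% all below. The median difference was 0.03 for fibroblast, -0.02 for leukocyte, -0.00 for endothelial and 0.03 for Schwann cell markers, against -0.01 for all genes. Among genes below the array median on all 8 arrays, a subset chosen after the values were seen, 29.4% of the 34 markers and 8.96% of 9476 genes were separated.

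**Figure D3:**
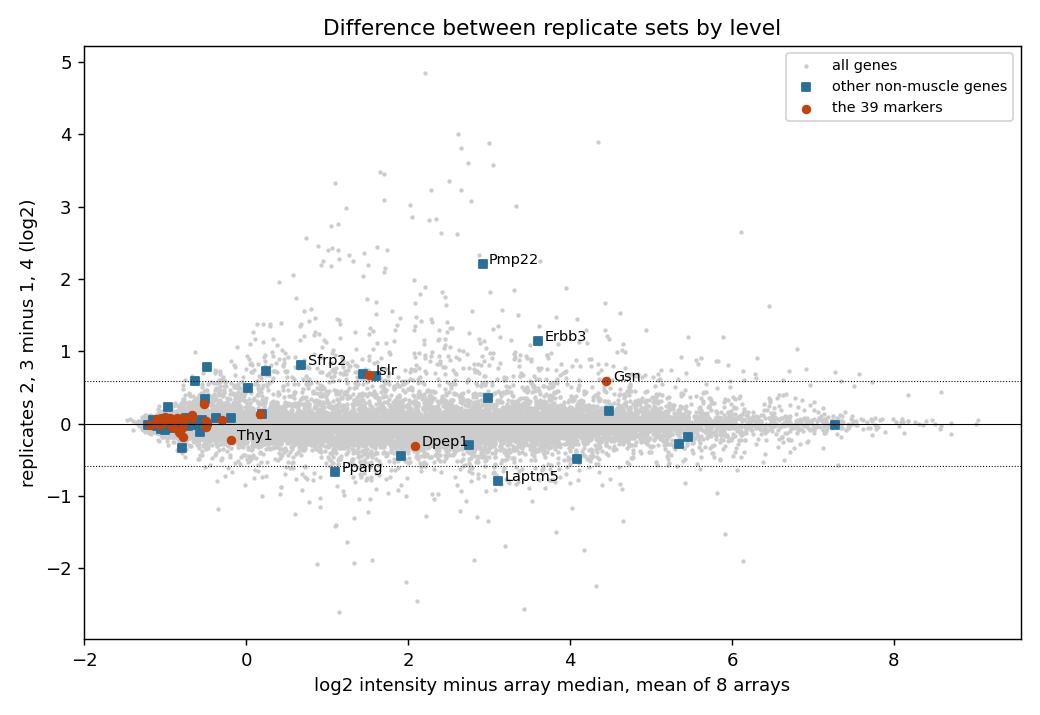
Difference between replicates 2 and 3 and replicates 1 and 4 (log2, vertical) against the mean level over the array median (horizontal) for all genes in grey, the 39 markers as red circles and other non-muscle genes as blue squares. Dotted lines mark 1.5-fold. Most markers sit at the left edge near 0, Gsn lies on the upper dotted line, and Pmp22 has the widest difference among the other non-muscle genes, at 2.20.

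As a set, the markers varied between arrays about as much as all genes did. The median range over the 8 arrays was 0.23, against 0.25 for all genes, and the 34 low markers had a median range of 0.20, against 0.19 for genes below the array median on all 8 arrays. Ranges over 0.5 occurred in 4 markers, Islr, Dpep1, Gsn and Thy1 (10.3%, against 15.5% of all genes). The median of the 39 on an array was 3.57 to 3.62 in Runx1f/f arrays and 3.57 to 3.62 in WT arrays.

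Other genes of the same lineages were read from further lists. Of 14 other leukocyte genes, 13 were below the array median on all 8 arrays, as were all 11 other endothelial genes. Laptm5, a lysosomal membrane protein of blood cells, was the exception, and read 7.80, 7.27, 6.93 and 8.14 in Runx1f/f 1 to 4, against 7.61, 7.21, 7.14 and 8.17 in WT 1 to 4. Replicates 2 and 3 were lower without overlap, with a difference of -0.79 on the log2 scale. Among the 14, Itgam, an integrin chain of myeloid cells, was separated the other way, by 0.23, and 12 overlapped, so that 1 was all above (9.87% of all genes were) and 1 all below (10.5% of all genes were). The next leukocyte gene, Cd53, averaged 3.88 ± 0.01 in Runx1f/f and 3.88 ± 0.12 in WT arrays, and the endothelial genes Prox1 and Lyve1 had mean levels of -0.38 and -0.64.

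The fibroblast list was divided. Of 11 other fibroblast genes, 5 were above the array median on all 8 arrays and 4 below it on all 8. Pcolce, an enhancer of procollagen processing, and Col1a2, a type I collagen chain, had mean levels of 5.46 and 5.35. Col1a2 read 9.76, 9.78, 9.97 and 9.56 in Runx1f/f 1 to 4, against 10.39, 9.13, 9.64 and 9.92 in WT 1 to 4. Sfrp2, a secreted Wnt modulator, was higher in replicates 2 and 3, at 5.34 to 5.95, against 4.25 to 4.92 in replicates 1 and 4. Of the 11 genes, 3 were all above in replicates 2 and 3 (Sfrp2, Col6a3 and Mfap4, where 9.87% of all genes were) and 2 all below, where 10.5% of all genes were: Fbln1 by -0.30 and Pcolce by -0.19. The other 6 overlapped, and Sfrp2 was the 1 gene past 1.5-fold (2.16% of all genes were, in that direction). Pcolce and Col1a2 were above the array median on all 8 arrays, as were the listed fibroblast markers Gsn, Dpep1 and Islr. On the same arrays, 11 of the 15 measured fibroblast markers were below it, Pdgfra, Dcn and Lum among them.

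Among 7 other Schwann cell and neural genes, 4 were below the array median on all 8 arrays. Erbb3, a neuregulin receptor, read 7.31, 8.75, 8.41 and 7.65 in Runx1f/f 1 to 4, against 7.62, 8.60, 8.65 and 7.25 in WT 1 to 4. Pmp22, a peripheral myelin protein also made in other tissues, read 6.55, 8.14, 8.75 and 5.93 in Runx1f/f 1 to 4, against 6.35, 8.22, 8.65 and 6.13 in WT 1 to 4. In both, replicates 2 and 3 were above 1 and 4 with no overlap, by 1.14 for Erbb3 and 2.20 for Pmp22. Egr2, a transcription factor of myelinating Schwann cells, was also higher, by 0.78, whereas Tubb3, a neuronal tubulin, was lower without overlap, by -0.33. Of the 7 genes, 3 were thus all above (9.87% of all genes were), all 3 past 1.5-fold (2.16% of all genes were), 1 was all below (10.5% of all genes were) and 3 overlapped. The median difference of the 4 listed Schwann cell markers across the same split was 0.03. Myogenic genes were separated by it too: of 27, 10 were all above (9.87% of all genes were) and 6 all below (10.5% of all genes were). Past 1.5-fold were 4 above (2.16% of all genes were) and 2 below (0.727% of all genes were). Separation across the split is thus not particular to non-muscle genes.

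**Figure D4:**
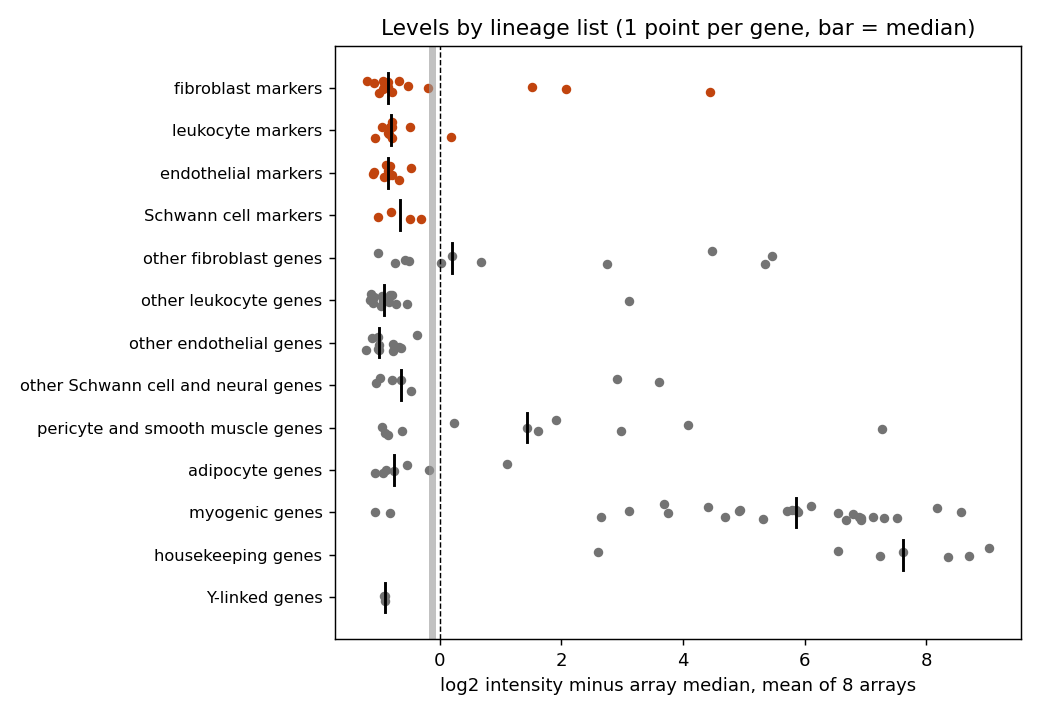
Mean level over the array median for each gene of 13 lists, with 1 point per gene and a bar at the list median; the 4 marker lists are in red, and the grey band and dashed line are as defined for the marker plot. The medians of the marker lists lie between -0.86 and -0.65, and that of the myogenic genes at 5.85.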

How the data were processed

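Of the 8 arrays, 4 were labelled Runx1f/f and 4 WT. The deposited table holds log2 intensities for 35399 rows, and per the submitters' processing notes the authors used RMA and Partek, without versions. RMA corrects background, quantile-normalizes arrays together and summarizes probes on the log2 scale. Quantile normalization can compress differences in dim probe sets. No label or header records a step that would make column means equal. Columns were matched to samples by the accession in their header. Scanner files and detection values were not used here, and the number of arrays limits the precision. Correlations between arrays ran from 0.9879 to 0.9972.

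Gene names came from the platform annotation, in which 21789 rows had 1 symbol, 1621 several and 11989 rows were not annotated. RefSeq held the gene identifiers of 21698 single-symbol rows (GRCm38.p6) and changed 0 symbols. The probe set with the highest mean represented a gene. The labelled genotypes entered limma 3.58.1 (R 4.3.3; lmFit, eBayes, two-sided, Benjamini-Hochberg over all genes), after testing on simulated data. The simulated arrays were independent, unlike the deposited columns, so that testing says nothing of calls between these labels. The markers and lists were chosen with earlier results of these data known. Values on each array are given for 8 defining markers, for markers above the array median on all arrays and for the widest-ranging markers of each lineage (3, or 1 for Schwann cells). From the further lists, other than the housekeeping and Y-linked genes, the 2 genes of highest level and the 1 of widest range were named, beside Runx1 and muscle genes. Exceptions were chosen after their values were seen. Deviations from genotype means correlated by 0.39, 0.46, 0.60 and 0.57 for same-numbered arrays 1 to 4. Those of Runx1f/f 1 and 2, and of 3 and 4, correlated by -1.00, so these are not 4 independent correlations. They do not show that same-numbered cultures were paired. An alternative fit blocked on the number, although the labels name no shared source.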

Additional observations from a re-analysis of the deposited data

Results flagged for a closer look

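Within each label, the 4 values of every marker were checked for an array far from the rest, and 1 of 78 groups was marked. Mbp was 3.90 in WT 1, while WT 2, 3 and 4 lay between 4.17 and 4.21. The 39 groups labelled Runx1f/f hold mirrored columns, whose symmetry leaves no array far from the rest.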

How the results depend on the processing

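The count of 0 markers and 0 genes called between the labels held under centring, repeated quantile normalization, the run block and the filter on dim genes. It also held under the other variance model, all probe sets and each array left out. Of the settings that keep all columns, centring and repeated quantile normalization moved the label means slightly apart, and the others keep the equal means. The largest marker difference was 0.00672 under centring and 0.0122 under repeated quantile normalization. Both start from columns with equal means, so neither compares the labels. The replicate block, pairing arrays by number, gave 0 calls and a Runx1 difference of -1.25e-05, as without it, and no other call changed. With 1 array left out the Runx1 difference ran from -0.173 without WT 1 to 0.202 without WT 3, and 0 to 27 genes had an unadjusted p under 0.05. The dim filter kept 4 markers. The 3 markers above the array median became 1, Gsn, with the 75th percentile over genes as the limit, and 3 to 4 with 1 array left out, the added marker being Cd68 without WT 1. The 4 above the receptor limit stayed 4 with 1 array left out, and the 11 separated between replicates 2 and 3 and replicates 1 and 4 became 11 to 13, and 10 under centring or repeated quantile normalization. With the 99th percentile of the receptor genes as the limit, 3 were above it. Requiring 1.5-fold left 1 of the 11, and requiring a difference of 1 on the log2 scale left 0; both follow from the stricter limit. Every measured marker has 1 probe set, so the choice of probe set changed none of them.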

Other observations

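Genes of pericytes, smooth muscle and adipocytes belong to no marker list above. Of 11 pericyte and smooth muscle genes, 6 were above the array median on all 8 arrays and 4 below it on all 8. Acta2, the smooth muscle actin that cultured myoblasts also make, had a mean level of 7.28, and Rgs5, a pericyte regulator of G-protein signalling, 4.09. Tagln, an actin-binding protein, read 6.08, 6.59, 6.40 and 6.27 in Runx1f/f 1 to 4, against 7.10, 5.60, 5.86 and 6.78 in WT 1 to 4. The smooth muscle genes Myh11 and Cnn1 had mean levels of -0.95 and -0.86. Replicates 2 and 3 lay all above 1 and 4 in 5 of the 11 genes, against 9.87% of all genes, and in 4 of them by at least 1.5-fold, against 2.16% of all genes. The other 6 overlapped, and 0 lay all below, where 10.5% of all genes did.

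Of 7 adipocyte genes, 5 were below the array median on all 8 arrays, among them Adipoq and Plin1 at mean levels of -0.88 and -0.93. Pparg, the adipogenic nuclear receptor, read 5.65, 5.39, 5.32 and 5.72 in Runx1f/f 1 to 4, against 6.17, 5.13, 4.91 and 5.88 in WT 1 to 4. Replicates 2 and 3 were lower than 1 and 4 without overlap, with a difference of -0.67 on the log2 scale, while the other 6 adipocyte genes overlapped. Of the 7 genes, 1 was thus all below (10.5% of all genes were), also past 1.5-fold (0.727% of all genes were). None lay all above, where 9.87% of all genes did. Cebpa had a mean level of -0.18. Of 4 Y-linked genes, 3 were measured, and all 3 were below the array median on all 8 arrays.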
